A study of Homo sapiens with 4 samples.

Results

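Actin cytoskeleton and SRF pathway genes were followed across 4 RNA-seq libraries of 293T cells. The list holds 44 genes, chosen by name for their function as actins, tropomyosins, non-muscle myosins, actin regulators, the GTPase genes RHOA, RAC1, and CDC42, and the SRF transcription factor with its coactivators, out of 58243 genes with values. Symbols were matched to Ensembl gene identifiers, and all 44 were found. Of these, 42 had at least 200 reads summed over the 4 libraries and were compared with the 12701 genes that met the same minimum; CNN1 with 105 reads and TAGLN with 95 did not.

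The 293T line is a human embryonic kidney line that carries the SV40 large T antigen and grows as adherent cells. Cells received either a control RNA or a mimic of miR-1, miR-122, or miR-124 by transfection. Mimics are synthetic RNAs that act as the mature miRNA, and the labels place RNA isolation at 48 h, whereas the study's methods give an earlier time. Each condition had 1 library, so no difference here has a replicate check, and all 3 mimic libraries share the same control RNA library. The cells of all 4 libraries differ only in the RNA transfected, as far as the labels say. Between 5887055 and 9452232 reads stood behind the values of a library, the most with miR-1, and the 44 genes took 1.29% of them with control RNA and 1.34%, 1.41%, and 1.36% with the miR-1, miR-122, and miR-124 mimics. A list of 6 markers for this line summed to 1386 to 2107 reads per library, of which NEFL gave 1102 to 1705, while PAX8 had 1 to 5. Markers of hepatocytes and blood cells summed to 2 to 5 and 2 to 20 reads per library, those of muscle to 74 to 132, and those of neurons to 133 to 235.

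Actin monomers (G-actin) polymerize into filaments (F-actin), which tropomyosins coat, myosin II pulls on, crosslinkers bundle, and focal adhesion proteins tie to integrins. Filament growth is set by nucleators such as the Arp2/3 complex and formins, by monomer-binding proteins such as profilins and thymosins, and by the disassembly factors of the cofilin group. MRTF coactivators bind G-actin, and when the monomer pool shrinks they enter the nucleus and switch on genes with SRF, which binds a DNA element known as the CArG box. Many actin and actin-binding protein genes are themselves SRF targets. Among the 3 miRNAs, miR-1 is known from striated muscle, miR-122 from liver, and miR-124 from neurons.

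A miRNA pairs with its targets mainly through its seed, bases 2 to 8 from the 5′ end, and lowers the targets' mRNA or translation. The mature sequences of 2 of the mimics' miRNAs, from RefSeq, are shown with the seed in capitals because the sites searched for in the 3′ untranslated regions (3′ UTRs) derive from them.
hsa-miR-1-3p: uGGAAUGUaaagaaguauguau
hsa-miR-122-5p: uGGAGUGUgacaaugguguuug

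For each gene, the longest 3′ UTR in the annotation was scanned for matches (GENCODE release 44, GRCh38). An 8mer match of miR-1 reads ACATTCCA; the 7mer-m8 match ACATTCC and the 7mer-A1 match CATTCCA are parts of it, and a site was counted once, under its longest form. For miR-122 the 8mer reads ACACTCCA, with ACACTCC and CACTCCA as 7mers. Matches of miR-124 were not searched for, because the set of sequences used held none for it. A gene said here to hold no match may therefore hold one of miR-124. Every 8mer among the members is shown, with the match in capitals, together with 1 example 7mer each for TPM4, TPM3, CAP1, ARPC1A, VCL, and MRTFB, whose ratios were past a fold defined below. VCL and MRTFB, shown with a miR-122 7mer, were past it with miR-1 and miR-124 and not with miR-122. ACTB, ZYX, and MRTFA, also past it, each hold 1 miR-1 7mer that is not shown, and MRTFB holds 2. Each is written 5′ to 3′ on the strand of its gene and lies in its 3′ UTR.
TPM4, miR-1 8mer, chr19:16102724-16102747, plus strand: atctcagagctagaACATTCCAca
TPM4, miR-1 7mer-m8, chr19:16102730-16102753, plus strand: gagctagaacattccACATTCCcc
TPM3, miR-1 7mer-A1, chr1:154166673-154166696, minus strand: aaaaaaaggaattcgCATTCCAat
TMSB4X, miR-1 8mer, chrX:12976826-12976849, plus strand: ccaatatgcactgtACATTCCAca
CAP1, miR-1 7mer-A1, chr1:40072036-40072059, plus strand: ggcttggccatctagCATTCCAta
WDR1, miR-1 8mer, chr4:10075087-10075110, minus strand: cttgagaatgcgaaACATTCCAga
PFN2, miR-1 8mer, chr3:149965439-149965462, minus strand: ttgaatccccagggACATTCCAtc
ARPC3, miR-1 8mer, chr12:110434899-110434922, minus strand: taaagaaatttctaACATTCCAtg
ARPC3, miR-1 8mer, chr12:110434828-110434851, minus strand: ttgagataaaattcACATTCCAta
CDC42, miR-1 8mer, chr1:22092037-22092060, plus strand: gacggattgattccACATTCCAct
ARPC1A, miR-1 7mer-A1, chr7:99366118-99366141, plus strand: gtttttttgcgatttCATTCCAtt
VCL, miR-122 7mer-A1, chr10:74119021-74119044, plus strand: cagggccactcccggCACTCCAtg
MRTFB, miR-122 7mer-A1, chr16:14263816-14263839, plus strand: attaactctgcaagcCACTCCAct

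The miR-1 8mer of TPM4 and its 7mer-m8 overlap by 1 base, so most of the 8mer stands in lower case in the second TPM4 sequence. In all, 6 of the 44 genes held a miR-1 8mer and 13 a 7mer only, against 5.98% and 19.0% of the 11213 genes with 200 reads and an annotated 3′ UTR. A miR-122 8mer was found in 0 of the 44 genes and a 7mer in 9, against 3.68% and 22.7%.

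The deposited FPKM values are depth-scaled reads per kilobase of the whole gene span, introns included, so they compare a gene between libraries but not genes with each other. Levels between genes are given here per kilobase of the spliced canonical transcript, as RPKM of that transcript. On that scale the monomer supply dominated in the control RNA library. ACTG1, cytoplasmic γ-actin, stood at 1314 (95% counting interval 1294 to 1334), the thymosin TMSB10 at 1093 (1056 to 1131), and the profilin PFN1 at 1039 (1012 to 1067), and the intervals of TMSB10 and PFN1 overlapped. ACTB, cytoplasmic β-actin, followed at 715 (700.0 to 730.3), then the cofilin CFL1 at 618, the light chain MYL6 at 253, and the GTPase RHOA at 199. Between TMSB4X at 147 and ARPC5 at 17.7, neighbours in the order mostly overlapped. The lowest levels belonged to MRTFA at 9.91, ARPC1A at 9.83, MYL9 at 5.42, MRTFB at 5.04, CNN1 at 2.22, and TAGLN at 0.598, the smooth muscle calponin and transgelin last. The levels of TPM2, CFL2, WDR1, CDC42, and TAGLN, and the exclusion of TAGLN, rest on reads that may be off by a whole factor.

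For each gene the FPKM of a mimic library was divided by that of the control RNA library, with no pseudocount. A ratio of 0.8 or less is called lower here and one of 1.25 or more higher, and each ratio has an exact 95% interval from the reads of the 2 libraries, which covers counting error only and compares libraries, not conditions. With miR-1, 6 of 42 members were lower, namely CAP1, TMSB4X, VCL, TPM3, MYL9, and ACTR3, while 18.4% of all tested genes were lower. Only TPM4 and ARPC1A were higher with miR-1, against 7.46% of all tested genes. With miR-122, ACTR2 alone was lower (12.4% of all tested genes), and TPM4 and ACTB were higher (7.96%). With miR-124, ACTR2 and MRTFB were lower (16.4%), and ZYX and MRTFA were higher (10.3%). As calculated here, none of these shares of members, from 2.38% to 14.3%, exceeded its background. Some shares did under other settings. With the trend adjustment described further on, 8 of 42 members (19.0%) were lower with miR-1, against 15.0% of all genes. Against the other mimic libraries 7 (16.7%) were, against 12.2%, and after centring on the median of all genes 7 (16.7%) were higher with miR-1, against 10.8%. The intervals of all 15 calls excluded 1.

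**Figure D1:**
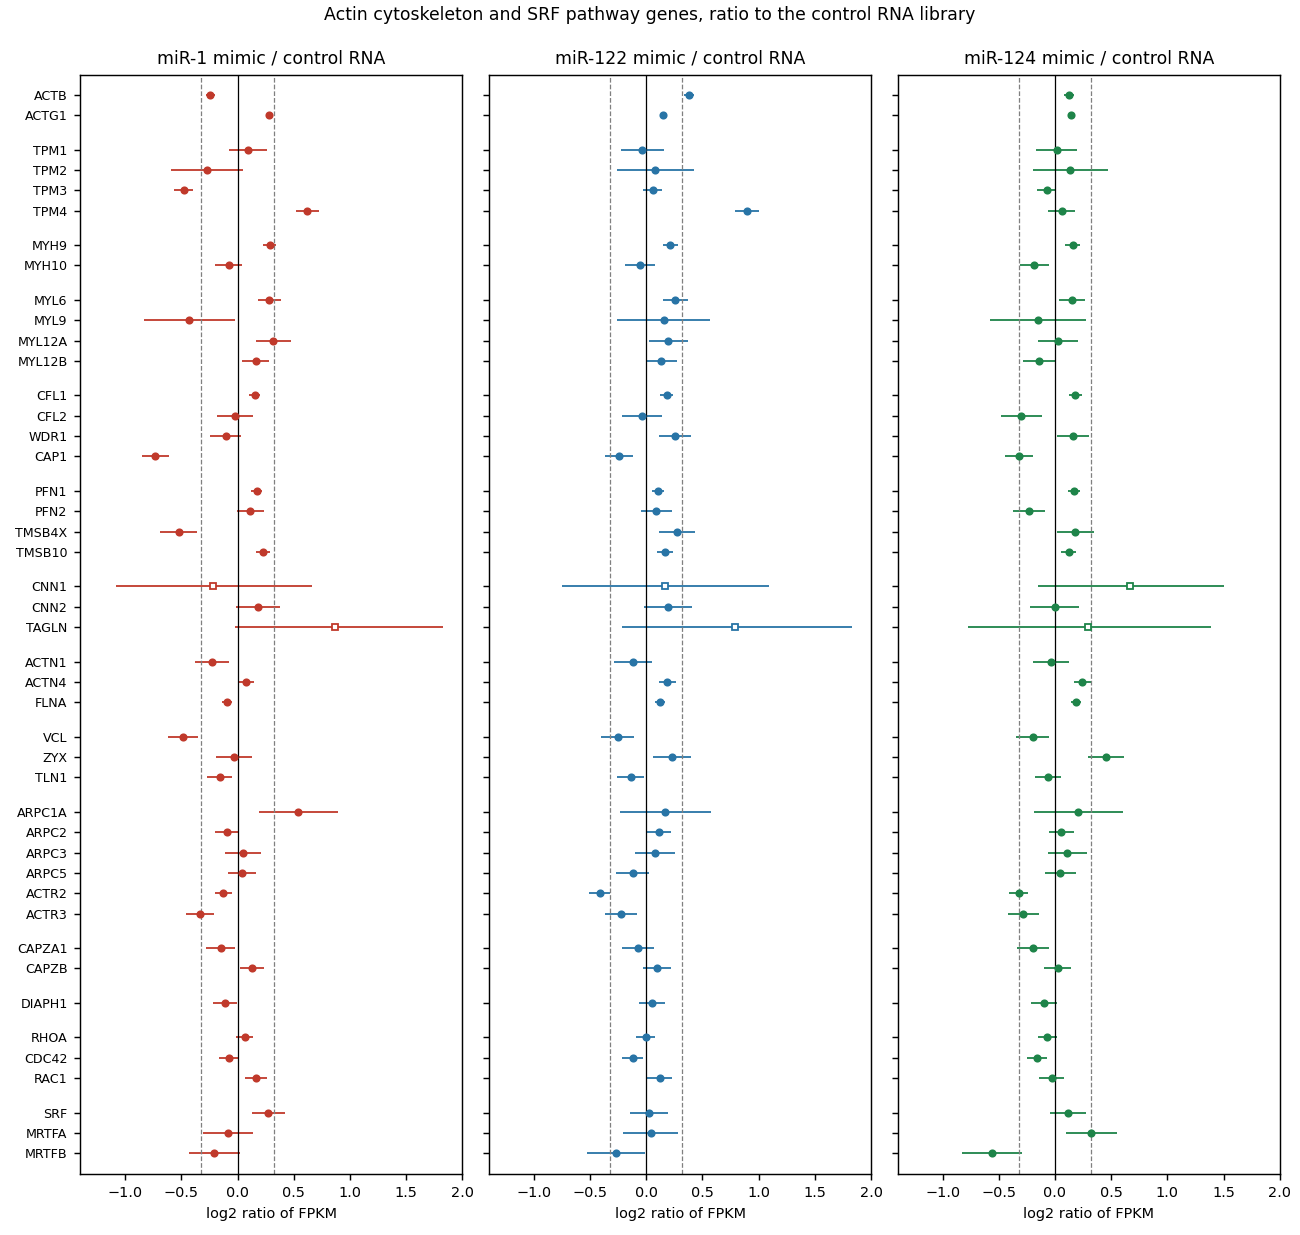
Log2 ratio of FPKM to the control RNA library for the 44 genes in the 3 mimic libraries, grouped by role. Points carry exact 95% counting intervals, open squares mark CNN1 and TAGLN with fewer than 200 reads, and dashed lines mark the ratios 0.8 and 1.25. Most members lie between the dashed lines, and TPM4 with miR-1 and miR-122 and CAP1 with miR-1 lie farthest out among those with 200 reads.

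The module as a whole moved little. The median log2 ratio of the 42 members was -0.03, 0.09, and 0.03 for the miR-1, miR-122, and miR-124 mimics, beside -0.05, -0.02, and -0.05 over all tested genes. The quartiles of the members were -0.16 and 0.16 with miR-1, and those of all genes were -0.25 and 0.13. With miR-122, 28 of 42 members (66.7%) were above the control RNA library, against 46.4% of all tested genes, and the intervals of 15 (35.7%) lay wholly above 1 and those of 7 (16.7%) wholly below, against 13.3% and 16.5%. With miR-1, 14 intervals (33.3%) lay above 1 and 13 (31.0%) below, against 15.6% and 24.7%. The numbers with miR-124 were 13 (31.0%) and 10 (23.8%), against 16.4% and 22.0%. An interval narrows with the reads of a gene, so these shares also depend on how abundant the genes are. The median counting interval of a member reached 0.12 on the log2 scale to either side with miR-1 and 0.13 with the others, so small shifts of abundant genes were outside counting error. Their size relative to the spread between cultures is unknown.

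**Figure D2:**
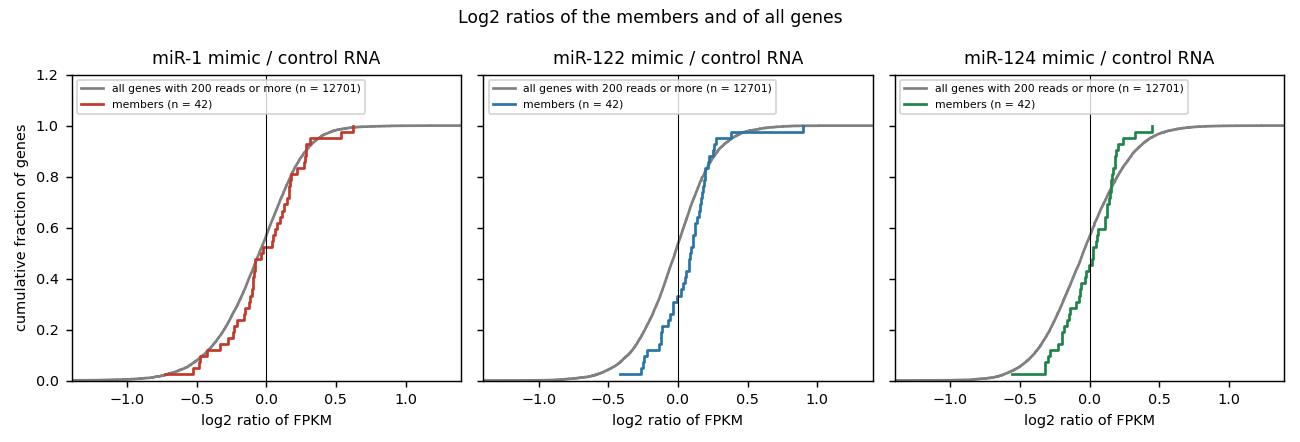
Cumulative distribution of the log2 ratio of FPKM to the control RNA library for the 42 members (coloured) and all 12701 genes with 200 reads or more (grey), 1 panel for each mimic. The members' medians are -0.03, 0.09, and 0.03, and their lower tail is shorter than that of all genes in the miR-122 and miR-124 panels.

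The 2 cytoplasmic actins went apart with miR-1, and both lay above the control with miR-122 and miR-124. ACTB had an FPKM of 35.4 with control RNA and 29.9, 46.0, and 38.6 with the miR-1, miR-122, and miR-124 mimics. Its ratios were 0.845 (0.821 to 0.870), 1.30 (1.26 to 1.34), and 1.09 (1.06 to 1.12), so it was lowest with miR-1 and highest with miR-122. After the trend adjustment described further on, its miR-124 ratio came to 0.996. ACTG1 read 182, 221, 202, and 201, with ratios of 1.22 (1.19 to 1.24), 1.11 (1.09 to 1.13), and 1.11 (1.08 to 1.13), and was highest with miR-1. ACTB has a miR-1 7mer-A1 in its 3′ UTR, and ACTG1 has no match of either miRNA. The 2 proteins are nearly identical, and how reads that match both genes were assigned is not stated. Pseudogenes named after them held 0.00790% and 0.228% of the parents' reads.

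Among tested members, tropomyosins spanned the widest range of any role, from 0.717 in TPM3 to 1.86 in TPM4. TPM4 stood at 4.54 with control RNA and 6.98, 8.46, and 4.74 with the miR-1, miR-122, and miR-124 mimics. Its ratios were 1.54 (1.43 to 1.65) with miR-1 and 1.86 (1.73 to 2.01) with miR-122, at the 99.3 and 99.9 percentile of all tested genes, and 1.04 (0.958 to 1.13) with miR-124. Control RNA and miR-124 were thus alike within counting error, and the other 2 libraries were high. TPM3 went the other way with miR-1, at 8.87, 6.36, 9.24, and 8.44, with ratios of 0.717 (0.677 to 0.760), 1.04 (0.982 to 1.11), and 0.951 (0.896 to 1.01). The miR-1 library was the single low one for TPM3, and its ratio was also low against miR-122 (0.688) and miR-124 (0.754). TPM1 had 2.50, 2.67, 2.44, and 2.52, with ratios of 1.07 (0.951 to 1.20), 0.974 (0.853 to 1.11), and 1.01 (0.888 to 1.15). TPM2 had 2.51, 2.07, 2.65, and 2.76, with ratios of 0.827 (0.662 to 1.03), 1.06 (0.834 to 1.34), and 1.10 (0.875 to 1.38). The intervals of TPM1 and TPM2 included 1 throughout. Tropomyosin genes share exon sequence, and pseudogenes of TPM3 held 3.57% and those of TPM4 1.42% of the parents' reads.

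Among myosin II genes, the heavy chain MYH9 had ratios of 1.22 (1.17 to 1.27), 1.16 (1.11 to 1.21), and 1.12 (1.07 to 1.17), and MYH10, the other heavy chain, 0.946 (0.872 to 1.03), 0.963 (0.879 to 1.05), and 0.881 (0.804 to 0.964). The essential light chain MYL6 ran with MYH9, at 1.22, 1.20, and 1.11, and the regulatory light chains MYL12A and MYL12B had 1.24 and 1.12 with miR-1, 1.15 and 1.10 with miR-122, and 1.02 and 0.907 with miR-124. MYL9, a regulatory light chain typical of smooth muscle, had an FPKM of 1.52 with control RNA and 1.13, 1.69, and 1.37 with the miR-1, miR-122, and miR-124 mimics. From about 100 reads a library, its ratios were 0.743 (0.560 to 0.986), 1.11 (0.835 to 1.49), and 0.902 (0.669 to 1.21). The miR-1 interval of MYL9 came close to 1, and its 3′ UTR holds no miR-1 match.

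CAP1, cyclase-associated protein, which recycles cofilin-bound monomers, was the lowest member with miR-1. Its FPKM was 5.49 with control RNA and 3.31, 4.64, and 4.39 with the miR-1, miR-122, and miR-124 mimics. The ratios were 0.603 (0.554 to 0.656), 0.845 (0.773 to 0.922), and 0.8004 (0.733 to 0.873), the last just above 0.8. All 3 mimic libraries lay below the control, and miR-1 lay lowest, at percentile 2.12 of all tested genes. CFL1, the main cofilin, had ratios of 1.11, 1.13, and 1.13, and CFL2 0.985, 0.974, and 0.812 (0.716 to 0.921). WDR1, which speeds cofilin-driven disassembly, stood at 2.80, 2.60, 3.33, and 3.13. Its ratios were 0.929 (0.846 to 1.02), 1.19 (1.08 to 1.31), and 1.12 (1.01 to 1.23), so that miR-1 and control RNA overlapped. With miR-1, for which it holds an 8mer, WDR1 was the lowest of the 4, at 0.780 (0.712 to 0.855) of miR-122 and 0.831 (0.758 to 0.910) of miR-124.

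Of the monomer-binding genes, thymosin β4 and thymosin β10 parted with miR-1. TMSB4X, which encodes the former, had an FPKM of 43.2 with control RNA and 30.0, 52.1, and 49.0 with the miR-1, miR-122, and miR-124 mimics, and ratios of 0.695 (0.620 to 0.779), 1.21 (1.08 to 1.35), and 1.13 (1.01 to 1.27). It was low in the miR-1 library alone. Its 8mer begins at base 29 of a 3′ UTR of 416 bases, and pseudogenes held 3.44% of its reads. TMSB10, which has no match, was above the control in all 3, at 1.17 (1.12 to 1.22), 1.12 (1.07 to 1.18), and 1.09 (1.04 to 1.14). PFN1 read 1.13, 1.08, and 1.12. Both lay below 1 in all 3 after the trend adjustment. PFN2, the profilin prominent in neurons, stood at 1.57, 1.70, 1.67, and 1.34, with ratios of 1.08 (0.995 to 1.18), 1.06 (0.967 to 1.17), and 0.854 (0.774 to 0.942), and was low with miR-124 only.

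CNN2, a calponin of non-muscle cells, had ratios of 1.13, 1.14, and 0.999, all with intervals that included 1. For its smooth muscle relatives the reads were few. CNN1 had 22 reads with control RNA and 27, 22, and 34 with the 3 mimics. TAGLN had 15, 39, 23, and 18 reads, FPKM values of 0.415, 0.756, 0.715, and 0.510, and ratios of 1.82 (0.982 to 3.56), 1.73 (0.862 to 3.56), and 1.23 (0.585 to 2.62). No interval of CNN1 or TAGLN against the control RNA library excluded 1 at this depth. Between mimic libraries, CNN1 was 1.84 (1.08 to 3.17) with miR-124 over miR-1.

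Crosslinkers stayed within the fold before adjustment. ACTN1, α-actinin of adhesions and stress fibers, stood at 0.940, 0.802, 0.868, and 0.920, with ratios of 0.853 (0.768 to 0.947), 0.923 (0.822 to 1.04), and 0.978 (0.875 to 1.09). ACTN4 had 1.05, 1.14, and 1.18, and FLNA, filamin A, 0.935, 1.09, and 1.14. The miR-1 library was the lowest of the mimic libraries for all 3 genes. Focal adhesion genes were mixed. VCL, vinculin, which links talin to actin, had an FPKM of 1.04 with control RNA and 0.740, 0.868, and 0.902 with the miR-1, miR-122, and miR-124 mimics, and ratios of 0.715 (0.650 to 0.786), 0.838 (0.756 to 0.929), and 0.871 (0.788 to 0.962). It was below the control in all 3, most with miR-1, for which its 3′ UTR holds no match. TLN1, talin, stood at 5.12, 4.58, 4.65, and 4.90, with ratios of 0.896 (0.830 to 0.967), 0.908 (0.834 to 0.989), and 0.958 (0.882 to 1.04). ZYX, zyxin, which is recruited to strained stress fibers, stood at 8.40, 8.19, 9.82, and 11.5, with ratios of 0.976 (0.874 to 1.09), 1.17 (1.04 to 1.32), and 1.37 (1.22 to 1.53). Zyxin was highest with miR-124 and next highest with miR-122.

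The Arp2/3 complex nucleates branched filaments, with ACTR2 and ACTR3 as its actin-like core. ACTR2 had an FPKM of 8.31 with control RNA and 7.60, 6.23, and 6.64 with the miR-1, miR-122, and miR-124 mimics, and ratios of 0.915 (0.867 to 0.966), 0.750 (0.704 to 0.7995), and 0.799 (0.752 to 0.849). ACTR3 read 2.06, 1.63, 1.76, and 1.69, with ratios of 0.793 (0.727 to 0.865), 0.856 (0.777 to 0.942), and 0.823 (0.748 to 0.904). Both core subunits were below the control in every mimic library, and the other 4 subunits were not. With the trend adjustment described further on, ACTR2 came to 0.918, 0.797, and 0.905. ACTR3 came to 0.858, 0.953, and 0.985, so with miR-122 and miR-124 it lay near 1. ARPC2 had ratios of 0.934, 1.08, and 1.04, with all intervals touching 1. ARPC3, with 2 miR-1 8mers, stood at 5.23, 5.41, 5.51, and 5.63, and its ratios were 1.03 (0.926 to 1.16), 1.05 (0.932 to 1.19), and 1.08 (0.956 to 1.21). No library of ARPC3 stood apart, and pseudogenes held 9.12% of its reads, the highest share among the members. ARPC5 stood at 8.65, 8.88, 7.95, and 8.92, with ratios of 1.03 (0.941 to 1.12), 0.920 (0.831 to 1.02), and 1.03 (0.937 to 1.14). ARPC1A stood at 0.385, 0.558, 0.434, and 0.445, from 103 reads in the control RNA library, with ratios of 1.45 (1.14 to 1.85), 1.13 (0.848 to 1.49), and 1.15 (0.877 to 1.52). Only its miR-1 library was outside counting error, on the high side although the 3′ UTR holds a miR-1 7mer-A1.

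Capping protein, which blocks filament ends, showed small differences. CAPZA1 stood at 2.63, 2.37, 2.50, and 2.30, with ratios of 0.901 (0.825 to 0.983), 0.949 (0.862 to 1.05), and 0.873 (0.793 to 0.962). CAPZB stood at 1.15, 1.25, 1.23, and 1.17, with ratios of 1.09 (1.01 to 1.18), 1.07 (0.982 to 1.16), and 1.02 (0.935 to 1.11). CAPZA1 was below the control in all 3 mimic libraries and CAPZB above it, with intervals that excluded 1 in 2 of 3 and 1 of 3. DIAPH1, a formin, stood at 1.84, 1.70, 1.90, and 1.72, with ratios of 0.923 (0.857 to 0.993), 1.04 (0.956 to 1.12), and 0.935 (0.862 to 1.01). Of the GTPases that steer these nucleators, RHOA had 1.05, 0.997, and 0.955, with every interval including 1, and RAC1 1.12, 1.09, and 0.980. CDC42 stood at 7.80, 7.38, 7.18, and 6.97, with ratios of 0.946 (0.894 to 1.00), 0.921 (0.863 to 0.982), and 0.894 (0.839 to 0.953). None of the 3 GTPase genes passed the fold with any mimic.

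SRF had an FPKM of 9.08 with control RNA and 11.0, 9.22, and 9.82 with the miR-1, miR-122, and miR-124 mimics. Its ratios were 1.21 (1.09 to 1.34), 1.02 (0.903 to 1.14), and 1.08 (0.967 to 1.21), so only the miR-1 library was above the control beyond counting error. The coactivator genes diverged with miR-124. MRTFA stood at 0.198, 0.186, 0.203, and 0.248, with ratios of 0.942 (0.808 to 1.10), 1.03 (0.868 to 1.21), and 1.25 (1.07 to 1.46). MRTFB stood at 0.227, 0.196, 0.189, and 0.154, with ratios of 0.865 (0.740 to 1.01), 0.831 (0.694 to 0.993), and 0.680 (0.564 to 0.817). The miR-124 library was the highest for MRTFA and the lowest for MRTFB, and MRTFB lay below the control in all 3.

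**Figure D3:**
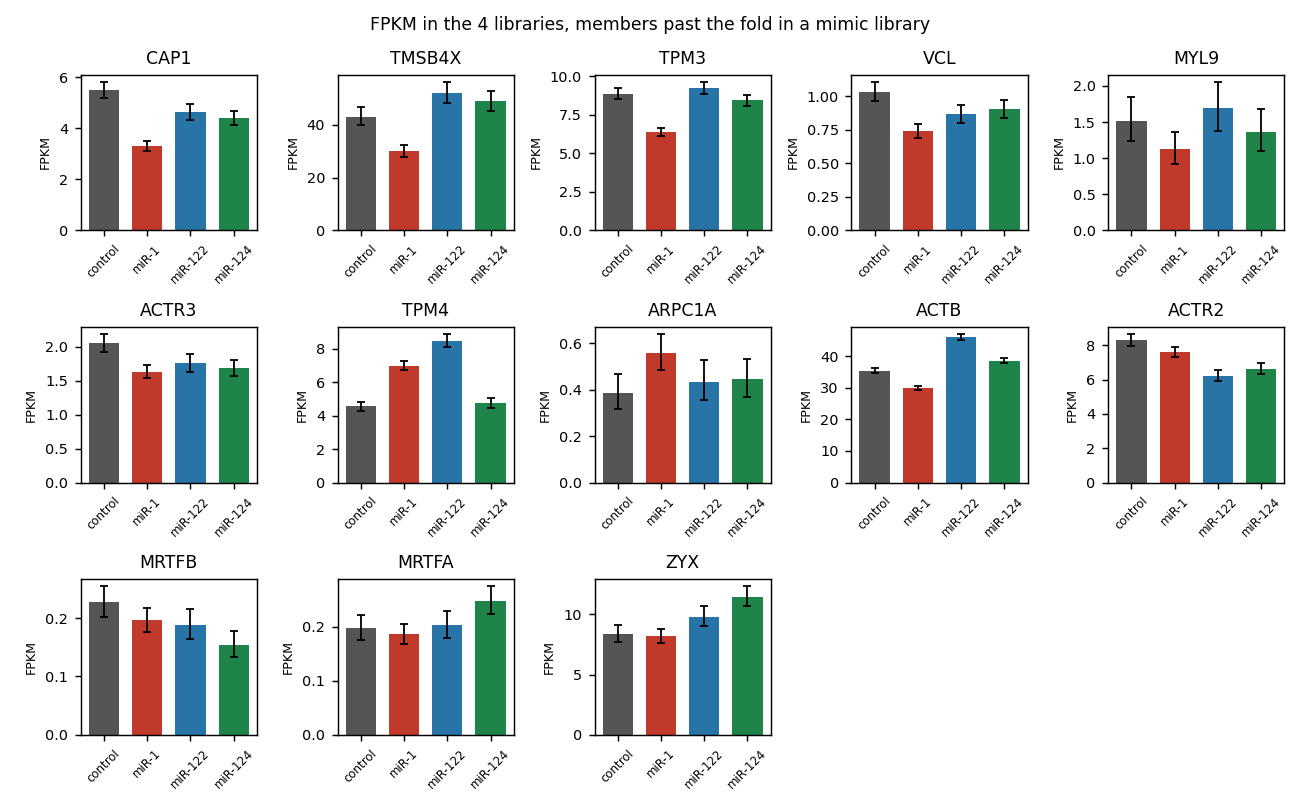
FPKM in the 4 libraries for the 13 members with a ratio of 0.8 or less or 1.25 or more in any mimic library. Bars are single libraries and error bars exact 95% Poisson intervals of the reads; axes start at 0 and differ between genes. CAP1, TMSB4X, and TPM3 are lowest with miR-1, TPM4 is high with miR-1 and miR-122, and ZYX is highest with miR-124.

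Whether members with a seed match stood lower was read beside all genes with the same match. The 6 members with a miR-1 8mer had ratios in the miR-1 library of 0.695 (TMSB4X), 0.929 (WDR1), 0.946 (CDC42), 1.03 (ARPC3), 1.08 (PFN2), and 1.54 (TPM4). Their median log2 ratio was -0.02, whereas that of the 670 tested genes with an 8mer was -0.26 and that of the 8407 genes with no match -0.01. In the miR-122 and miR-124 libraries the same 6 members had medians of 0.17 and 0.08. The 670 genes had -0.09 and -0.16 there, and the 8407 genes -0.01 and -0.03. The 12 tested members with a 7mer only had a median of -0.10 (all genes with a 7mer -0.16), and 2 of them, TPM3 and CAP1, were lower. TPM3 carries 6 copies of the 7mer-A1 in a 3′ UTR of 6124 bases. The 24 members with no miR-1 match had a median of 0.07, and 3 of them, VCL, MYL9, and ACTR3, were lower. A seed match was held by 3 of the 6 members that were lower with miR-1 and by 18 of all 42 tested members (42.9%).

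TPM4 combined an 8mer, an overlapping 7mer-m8, and a further 7mer-A1 with the highest miR-1 ratio of any tested member. Its 3 matches all lie within the 3′ UTR of the MANE Select transcript. With the 3′ UTR of that transcript in place of the longest, a choice made after seeing the data, the same 6 members held an 8mer, and 9 members held a 7mer only, with a median of -0.15.

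For miR-122, the 8 tested members with a 7mer had a median log2 ratio in the miR-122 library of -0.05, close to -0.06 over the 2545 tested genes with a 7mer, and the 34 with no match had 0.12, against -0.01 over all such genes. In the miR-1 and miR-124 libraries the 8 members had -0.22 and -0.05, and the 2545 genes -0.10 and -0.08. The 34 members had 0.04 and 0.05 there, and all genes with no match -0.04 and -0.04. None of the 8, which are TPM2, TPM3, ACTN1, VCL, TLN1, CAPZB, SRF, and MRTFB, was lower with miR-122. ACTR2, the member that was, has no miR-122 match.

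Promoters were searched for the CArG box, 2 C, then 6 bases of A or T, then 2 G, from 250 bases before to 50 bases after each start site. RefSeq promoters (GRCh38.p14) matched 39 of the 44 genes. ACTB was not among the 39, so its promoter was not searched, and the medians below leave it out. The box was found in 6 of these 39 (15.4%), against 1.60% of 27305 genes, a description with no test, since several members are on the list as known SRF targets. Their boxes, in capitals and on the strand of the gene, are shown because they are the motif that names the pathway.
ACTG1, chr17:81512874-81512903, minus strand: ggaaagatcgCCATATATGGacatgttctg
ACTN1, chr14:68977718-68977747, minus strand: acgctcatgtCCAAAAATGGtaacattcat
CNN2, chr19:1026509-1026538, plus strand: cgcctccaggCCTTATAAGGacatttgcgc
FLNA, chrX:154374709-154374738, minus strand: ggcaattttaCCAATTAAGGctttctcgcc
SRF, chr6:43171229-43171258, plus strand: ctggggctcaCCATATAAGGagcggcctcg
SRF, chr6:43171249-43171278, plus strand: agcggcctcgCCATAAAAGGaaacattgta
TPM4, chr19:16067355-16067384, plus strand: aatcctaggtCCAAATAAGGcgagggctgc

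The search pattern is its own reverse complement, so 1 strand was searched, although a single box can read differently on the other strand. The box began 94 bases before the start in ACTG1 and FLNA and 89 before it in CNN2, whereas the pair in SRF began 30 and 10 bases before it. The 6 genes with a box had a median log2 ratio of 0.23, 0.14, and 0.09 in the miR-1, miR-122, and miR-124 libraries. The 32 tested members with a promoter but no box had -0.06, 0.07, and 0.03. With miR-1 the 6 ranged from 0.853 in ACTN1 to 1.54 in TPM4, with SRF at 1.21, ACTG1 at 1.22, CNN2 at 1.13, and FLNA at 0.935. Over all 154 tested genes with a box the medians were -0.06, 0.03, and -0.04, and over the 9508 without -0.05, -0.03, and -0.05.

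Other genes of the pathway came from 3 longer lists. Of 12 tested genes beyond the members on a list of SRF targets, 2 were lower (18.4% of all tested genes) and 3 higher (7.46%) with miR-1. With miR-122, 1 was lower (12.4%) and 4 higher (7.96%), and with miR-124, 0 were lower (16.4%) and 3 higher (10.3%). The immediate-early gene EGR1, with 2 CArG boxes in its promoter, stood at 2.05 in the control RNA library and at 3.07, 3.02, and 3.03 in the mimic libraries, with ratios of 1.496 (1.07 to 2.12), 1.47 (1.01 to 2.15), and 1.48 (1.02 to 2.15). IER2, also immediate-early, had 1.22 (1.08 to 1.37), 1.31 (1.15 to 1.49), and 1.27 (1.12 to 1.45). Both were lowest in the control RNA library and alike in the other 3. TGFB1I1, which encodes the adhesion protein Hic-5, had 0.701 (0.504 to 0.974), 1.37 (1.01 to 1.88), and 1.13 (0.821 to 1.56). SRFBP1, on the list although it encodes an SRF-binding protein, was the 1 gene lower with miR-122, at 0.742 (0.563 to 0.974).

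Among 16 tested paralogs and remaining subunits, 3 (18.8%) were lower and 1 (6.25%) higher with miR-1, near the 18.4% and 7.46% of all tested genes. TWF1, twinfilin, which binds actin monomers and capping protein, stood at 6.37 with control RNA and 2.13, 5.28, and 4.39 with the miR-1, miR-122, and miR-124 mimics, a ratio of 0.335 (0.287 to 0.389) with miR-1. TAGLN2, transgelin of non-muscle cells, stood at 60.9, 32.4, 69.2, and 66.0, a ratio of 0.533 (0.504 to 0.562) with miR-1, and CNN3, a further calponin, had 0.727 (0.668 to 0.792). All 3 hold a miR-1 match, and their miR-1 values were the lowest of the 4. They were named for having the largest log2 ratios of their list, so large shifts were built into the choice. Whether the matches bear on these values was not tested. ARPC4, a further Arp2/3 subunit with no match, had 1.56 (1.35 to 1.81) with miR-1.

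The list of 26 filament and adhesion proteins had 7 lower (26.9%, against 18.4% of all tested genes) and 0 higher (7.46%) with miR-1. It had 0 lower (12.4%) and 1 higher (7.96%) with miR-122, and 4 lower (16.4%) and 3 higher (10.3%) with miR-124. Its median log2 ratios were -0.12, -0.03, and -0.05. LASP1, a LIM and SH3 domain protein of adhesions with 2 miR-1 8mers, stood at 3.45, 1.93, 3.59, and 3.49, a ratio of 0.558 (0.512 to 0.609) with miR-1. CORO1C, a coronin that also holds 2 miR-1 8mers, had 0.697 (0.644 to 0.754), 0.955, and 0.865. TES, testin, which binds zyxin, had 0.657 (0.574 to 0.752), 0.841, and 0.834, and TMOD3, a tropomodulin that caps pointed ends, 0.751 (0.651 to 0.866), 0.810, and 0.772. Both were below the control in all 3 mimic libraries. TES has no miR-1 match, whereas TMOD3 holds 3 miR-1 7mers and 2 miR-122 7mers. These 4 genes, too, were named for the largest log2 ratios of their list.

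Across all genes the ratio moved with 3′ UTR GC content, most with miR-124. Pearson's r of the log2 ratio with GC content over 11213 genes was 0.24, 0.34, and 0.61 for the miR-1, miR-122, and miR-124 libraries, and over the 42 members it was 0.05, 0.31, and 0.56; genes of 1 library are not independent replicates. The members' 3′ UTRs ranged from 32.2% GC in ACTR3 to 65.9%, with a median of 44.6%, against 42.7% over all genes. Of the members called with miR-124, those that were higher, ZYX at 59.9% and MRTFA at 58.5%, lay above that median, and those that were lower, ACTR2 at 34.1% and MRTFB at 39.4%, below it. After subtraction of a trend with GC content, 3′ UTR length, gene span, and reads, the miR-124 ratio of ZYX was 1.06, that of MRTFA 1.12, and that of ACTR2 0.905, which are inside the fold, and MRTFB remained at 0.789. For the miR-1 library the adjusted ratios were 0.572 for CAP1, 0.613 for TMSB4X, 0.730 for TPM3, 0.757 for VCL, 0.728 for MYL9, 0.858 for ACTR3, and 1.48 for TPM4. TPM2 at 0.760, ACTB at 0.767, and FLNA at 0.771 came below 0.8 with miR-1 only after the adjustment. MYL9 likewise came to 0.743 with miR-124. The adjustment also took 3, 3, and 6 members across 1 in the miR-1, miR-122, and miR-124 libraries, among those whose unadjusted interval excluded 1. PFN1 and TMSB10, above the control without it, came to 0.911 and 0.941 with miR-1, 0.946 and 0.964 with miR-122, and 0.944 and 0.856 with miR-124. Likewise, CFL1 came to 0.967 with miR-1 and FLNA to 0.936 with miR-122. With miR-124, ACTB came to 0.996, MYL6 to 0.910, CFL1 to 0.975, and FLNA to 0.845. TPM4 with miR-122 stayed at 1.86, and ACTB with miR-122 came to 1.24.

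**Figure D4:**
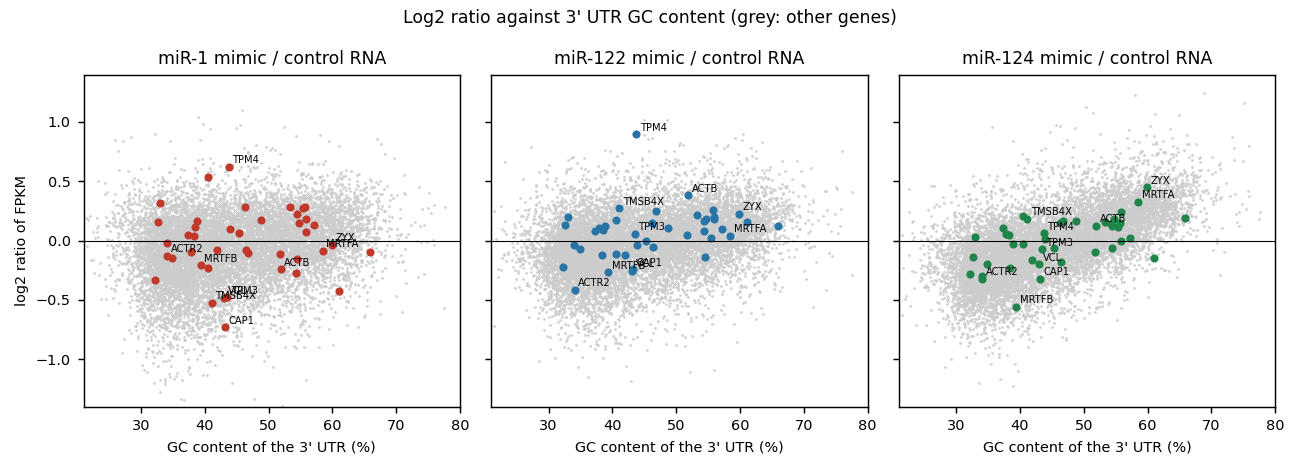
Log2 ratio of FPKM to the control RNA library against 3′ UTR GC content (%), 1 panel for each mimic, for the 42 members (coloured) and the other tested genes (grey), without the few that lie beyond the axes. The grey cloud slopes upward most with miR-124 (r = 0.61), with ZYX and MRTFA toward its upper right, MRTFB and ACTR2 toward its lower left, and TPM4 with miR-122 far above it.

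Because the mimic libraries share a control, each was also set against the mean of the other 2 mimic libraries. With miR-1, TMSB4X at 0.594, TPM3 at 0.720, CAP1 at 0.733, and MYL9 at 0.737 were again below 0.8, and VCL at 0.836 and ACTR3 at 0.945 were not. ACTB at 0.706, TPM2 at 0.767, and ZYX at 0.770 were below 0.8 here and not against the control RNA library. TPM4 came to 1.06, 1.44, and 0.613 in the miR-1, miR-122, and miR-124 libraries, since it was high in 2 of the 3 mimic libraries. Direct ratios gave the same order, with miR-122 above miR-1 by 1.21 (1.14 to 1.29) and above miR-124 by 1.79 (1.66 to 1.93). ACTR2 with miR-122 and miR-124 came to 0.875 and 0.960 and MRTFB with miR-124 to 0.801, values nearer 1 because the other mimic libraries were low too. ZYX and MRTFA with miR-124 were both at 1.27. In bulk RNA, fewer cells with a transcript and less of it per cell cannot be told apart.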

How the data were processed

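Polyadenylated RNA of 4 libraries was sequenced single-end, 1 library for each condition. According to the authors' methods and processing notes, bases were called with CASAVA 1.8, reads were trimmed and mapped to GRCh38 with HISAT2 2.0.0, and FPKM values per gene were deposited. No counting program, annotation, or strand setting was given in the sources used here. Groups were taken from the labels. The members and gene lists were chosen with earlier results of these data known.

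Whole reads were recovered from the FPKM values. The value of 1 read gave the divisor of each library, and the length that made reads whole in all 4 libraries gave the reads, with a tolerance of 0.002, for 32155 of the 32358 genes above 0. That length came within 10% of the annotated span (GENCODE release 44) for 39 of the 44 members; for the other 5 (TPM2, CFL2, WDR1, CDC42, and TAGLN) the reads may be off by a whole factor, which would change their intervals, levels per transcript, and place in the minimum of 200 reads, but no ratio. Ratios of FPKM were taken without a pseudocount, and exact Clopper-Pearson intervals (95%) were computed from the recovered reads. Only genes with at least 200 reads were called lower or higher, while CNN1 and TAGLN were given intervals without a call. With 1 library per condition no test was run. Values in all libraries were given for members past the fold or with a 7mer or 8mer match, and at most 4 genes of each longer list, those with the largest log2 ratio in either direction, were named. A further list is not reported here. Alternatives were pseudocounts, a minimum FPKM, another reference, centring, a stricter fold, and an adjustment for a cubic trend with 3′ UTR GC content and length, span, and reads over 11213 genes. The steps were tested on simulated data. The software was pyfaidx 0.9.0.4, pandas 2.3.3, numpy 2.4.6, scipy 1.17.1, and matplotlib 3.10.9 under Python 3.11.15.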

Additional observations from a re-analysis of the deposited data

How the results depend on the processing

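The members' median log2 ratios moved by less than a median counting interval under every alternative run, and no ratio past the fold changed sign, whereas smaller ratios did, such as those of PFN1 and TMSB10 with the adjustment. Counts of called members are small, and many changed. With a pseudocount of 1, members lower and higher with miR-1 numbered 3 and 1, in place of 6 and 2. Those with miR-124 numbered 0 and 1, in place of 2 and 2. The shares of all genes fell too, to 3.48% and 3.10% with miR-1 and to 1.73% and 4.79% with miR-124. A pseudocount of 0.1 gave 1 and 1 with miR-124, against 9.76% and 8.76% of all genes. At 1.5-fold, 1 member was lower (CAP1) and 1 higher (TPM4) with miR-1, 0 and 1 with miR-122, and 0 and 0 with miR-124. The shares of all genes at that fold were 4.93% and 0.976%, 2.38% and 1.37%, and 3.12% and 1.88%. With a mean FPKM of at least 1, 36 members remained. Of these, 1 was higher with miR-1, against 13.2% of all genes. With miR-124, 1 was lower and 1 higher, against 13.5% and 17.4%. Against the mean of the other 2 mimic libraries, 7 were lower (16.7%, against 12.2% of all genes) and 1 higher (2.38%, against 5.39%) with miR-1. With miR-122, 0 were lower (against 4.77%) and 4 higher (9.52%, against 7.12%). Centring on the median of all tested genes gave 5 lower (11.9%, against 14.7% of all genes) with miR-1, in place of 6. It gave 7 higher (16.7%, against 10.8%) with miR-1, in place of 2, and 1 lower with miR-124, against 12.4%. Subtraction of the trend with GC content, length, span, and reads left 1 higher with miR-122 (against 5.69% of all genes) and 0 with miR-124 (against 4.05%). It gave 8 lower with miR-1 (19.0%, against 15.0%). With a pseudocount of 1 or at 1.5-fold, 5 further counts were above the share of all genes, each of 1 to 3 members. With the pseudocount these were 3 lower with miR-1 (7.14%), and 1 lower (2.38%, against 1.82%) and 2 higher (4.76%, against 2.77%) with miR-122. At 1.5-fold they were the 1 higher with miR-1 and the 1 higher with miR-122, 2.38% each. Of 126 single ratios for each setting, 64 moved by more than their counting interval against the other mimic libraries, 40 with the adjustment, 8 with centring, and 6 with a pseudocount of 1. No paired analysis was possible because there were no replicates to pair, and none could be left out. Depth limits CNN1 and TAGLN, and to a lesser degree MYL9 and ARPC1A.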
